A study of Mus musculus with 4 samples.

Results

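The 10 genes described here encode cytokines of effector and helper T cells, namely *Ifng*, *Tnf*, *Lta*, *Ltb*, *Il2*, *Csf2*, *Il10*, *Il17a*, *Il4* and *Il22*. They were taken by name, as every probe on the arrays that is not a control and that carries one of these gene symbols, which gave 13 of 41174 probes. RNA was compared between CD8αβ+ intraepithelial lymphocytes (IELs), taken from small intestinal epithelium, and CD8αβ+ splenocytes (SPLs), with 2 samples in each group. All samples came from male wild-type mice of 8 to 12 weeks, and the sort gate was CD45+ CD3+ CD8α+ CD8β+ TCRβ+. The labels name no stimulation of these cells before lysis, and per the study each sample pooled cells of several mice. Whether the replicates came from separate mice is not said, so that p-values measure the spread between these samples. Every sample had a 1-color Agilent array of its own. Slide 1 carried IEL replicate 1 with SPL replicate 2, and slide 2 the other two.

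T cells secrete cytokines or carry them on the membrane to direct other cells. IFN-γ and TNF are the classical products of cytotoxic and type 1 helper cells, IL-4 and IL-17A mark type 2 and type 17 helper cells, and IL-22 acts on the epithelium. The genes are switched on by T cell receptor signals through factors such as NFAT and AP-1 and by lineage factors such as T-bet, and several of the transcripts are short-lived because AU-rich motifs in them recruit decay proteins.

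A log2 level is the log2 of the background-subtracted intensity minus the 75th percentile of its own array, so that 0 is a fairly bright spot on that array. Levels were compared between arrays for 1 probe at a time, since probes bind with different strength. A probe was counted as detected on an array when the scanner software marked all its spots as well above background. Across 27902 tested probes, Pearson's r was 0.946 between the IEL arrays and 0.986 between the SPL arrays, but 0.992 between the arrays of slide 2 and 0.911 between those of slide 1. Genes are not independent replicates, and these correlations only describe the arrays. IEL replicate 2 therefore lay closer to an SPL array than to IEL replicate 1. It also held markers of other cells at the level of the spleen arrays, such as the B cell gene *Ms4a1* with log2 levels of -6.15 and 2.27 on IEL replicates 1 and 2 against 2.60 and 2.40 on SPL replicates 1 and 2, and the neutrophil gene *S100a9* with -4.17 and 4.87 against 5.14 and 5.29. Whether IEL replicate 2 was mixed with spleen RNA or carries the right label was not tested. SPL replicate 1 in turn lay closer to IEL replicate 2 than to SPL replicate 2. The summed signal of 10 epithelial markers, on the log2 scale, was 0.99 on SPL replicate 1 and -1.17 on SPL replicate 2. Whether SPL replicate 1 was mixed with IEL RNA was not tested either. Every IEL mean below includes IEL replicate 2, and every SPL mean includes SPL replicate 1. Each difference of a tested probe of the 10 cytokines is also given within each slide. For other genes the values within each slide are given only in part.

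Detection of these cytokines is given for each array, beside the share of all probes. Of the 10 genes, 8 were detected on IEL replicate 1, 8 on IEL replicate 2, 8 on SPL replicate 1 and 7 on SPL replicate 2. Counted by probe, 11, 10, 10 and 8 of the 13 were detected on these arrays. Over all probes on the array, 63.6%, 67.6%, 68.3% and 69.6% were detected on the same arrays. *Ifng*, *Tnf*, *Lta*, *Ltb*, *Il2* and *Il10* made up the 6 genes that were detected on all 4 arrays by at least 1 probe. Probe for probe, 7 of 13 were, beside 60.9% of all probes. *Csf2* and *Il22* were detected on both IEL arrays and, of the spleen arrays, on SPL replicate 1 alone. Whether that array was mixed with IEL RNA was not tested. *Il4* was detected on SPL replicate 2 alone, and *Il17a* on none. The probes of *Il2*, *Csf2*, *Il10*, *Il4*, *Il17a* and *Il22* were dim, with at most 65.2 intensity units on any array, where the 75th percentile lay between 312 and 605 units.

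**Figure D1:**
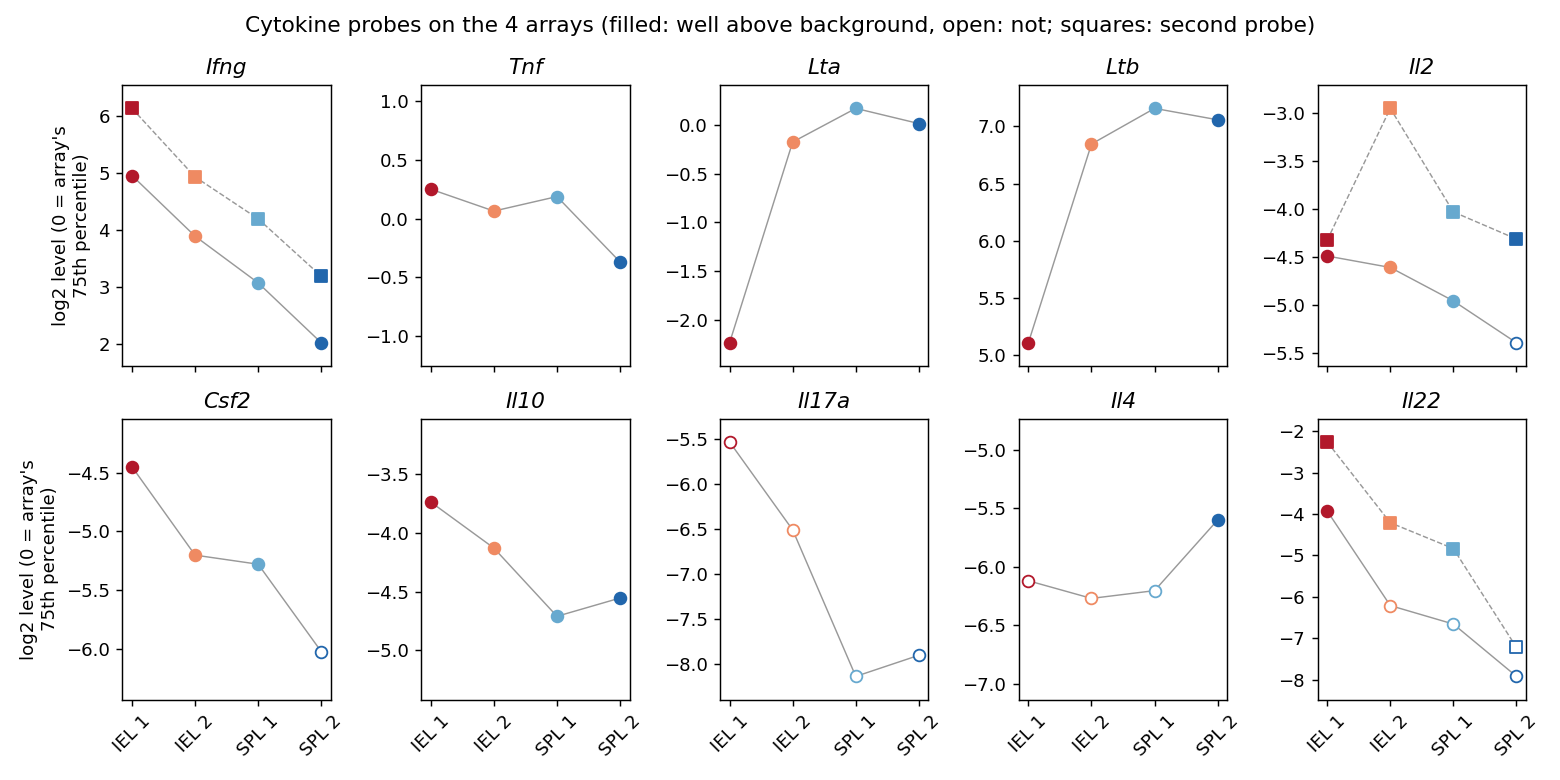
Log2 level of each cytokine probe on the 4 arrays, with 0 at the 75th percentile of the array. Circles and squares are the different probes of a gene, filled symbols are well above background and open symbols are not. *Ifng* and *Il22* step down from IEL replicate 1 to SPL replicate 2, and *Lta* and *Ltb* are low on IEL replicate 1 alone. The vertical scale differs between panels.

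A total of 8 genes, through 10 probes, passed the filter of being well above background on both arrays of a group, as did 67.8% of all probes, and they were tested with limma. Of these 8, 6 had a higher mean in CD8αβ+ IELs and 2 a lower mean, beside 49.9% and 50.1% of all tested probes, and 0 passed an adjusted p of 0.05, as did 0% of all 27902 tested probes. With the normexp background correction in place of the scanner's own, 2 were higher and 6 lower, *Il2*, *Csf2*, *Il10* and *Il22* turning sign, while the median of all tested probes moved to -0.38. At an unadjusted p below 0.05, 1 of the 8 genes, *Ifng*, was higher, beside 4.63% of all tested probes higher and 1.1% lower. The median log2 difference of the 8 genes was 0.62, against 0.00 for all tested probes, and the filter admits genes through the group where they are brighter, as it did for *Csf2* and *Il22*. Among the 6 genes well above background on all 4 arrays, 4 were higher and 2 lower, with a median of 0.39. Both IEL arrays lay above both SPL arrays for 4 of the 8 genes (*Ifng*, *Csf2*, *Il10* and *Il22*) and below them for 2 (*Lta* and *Ltb*), beside 24.4% and 24.6% of all tested probes. The same 4 genes were higher on each slide, and the same 2 lower on each, beside 35.8% and 35.9% of all tested probes. With 2 arrays against 2, an exact permutation test cannot go below a two-sided p of 0.33.

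**Figure D2:**
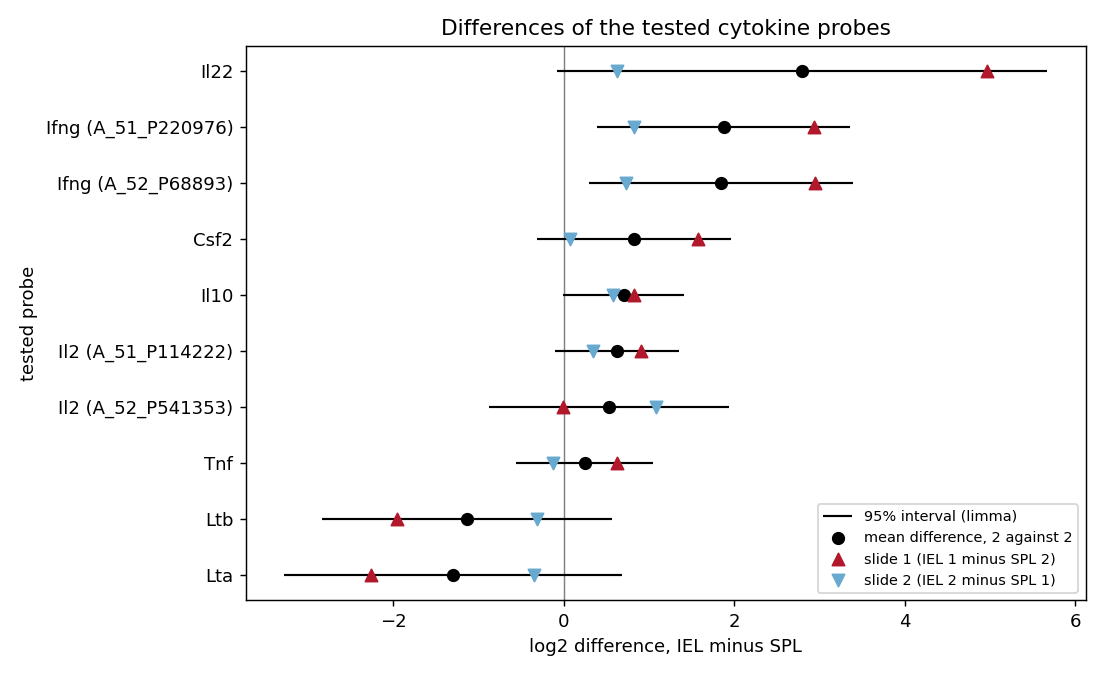
Log2 difference between CD8αβ+ IELs and CD8αβ+ SPLs for the 10 tested cytokine probes. Black points are means of 2 against 2 samples with their confidence interval from limma (95%), and triangles are the differences within each slide. The slide 1 difference is the larger in size for every probe but that of *Il2* named A_52_P541353, and the intervals of both *Ifng* probes, 0.29 to 3.39 and 0.39 to 3.36, lie above 0.

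*Ifng* encodes IFN-γ, which activates macrophages and raises antigen presentation. It was read by a pair of probes near the end of its transcript on chromosome 10. Probe A_52_P68893 (mm9, chr10:117882841-117882900, plus strand, from base 1099 of the transcript) had log2 levels of 6.13 and 4.93 on IEL replicates 1 and 2, and of 4.19 and 3.19 on SPL replicates 1 and 2. The groups did not overlap, but IEL replicate 2 and SPL replicate 1 were closer to each other than the arrays of either group were. The means were 5.53 ± 0.85 (SD, n = 2) and 3.69 ± 0.71 (SD, n = 2). CD8αβ+ IELs were 3.58-fold higher by a log2 difference of 1.84 (standard error 0.58), for which limma gave an adjusted p of 0.634. On slide 1 the difference was 2.94, and on slide 2 it was 0.73.

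The other *Ifng* probe, A_51_P220976 (chr10:117882614-117882673), was spotted 10 times on each array and gives the spread of the measurement itself. Its levels were 4.95 and 3.89 on the IEL arrays, and 3.07 and 2.02 on the SPL arrays, with SDs between 0.04 and 0.07 over the spots of an array. Spots of different arrays did not overlap, so that the steps between arrays, of about 1 log2 unit also within a group, exceeded the spotting error. This probe gave a log2 difference of 1.88 (standard error 0.55, adjusted p 0.634 by limma), of which slide 1 had 2.93 and slide 2 had 0.82. Both probes thus gave the same order of the 4 arrays. Without IEL replicate 2 the differences of these probes were 2.44 and 2.41, in a fit that rests on 1 IEL array. Without IEL replicate 1 they were 1.24 and 1.34. Without SPL replicate 1 they were 2.34 and 2.40, and without SPL replicate 2 they were 1.34 and 1.35.

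The end of the brighter *Ifng* probe is shown because it carries the pentamer ATTTA, the core of the AU-rich motifs that decay proteins bind. Its last 30 bases follow, 5′ to 3′, with the pentamer in capitals.
A_52_P68893: acccgaatgacaaataactcgctcATTTAt
The pentamer was found in 9.16% of all 41174 probes and in 2 of the 13 cytokine probes, the other being that of *Il10*. A match is a description of the letters and not a measured binding site.

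**Figure D3:**
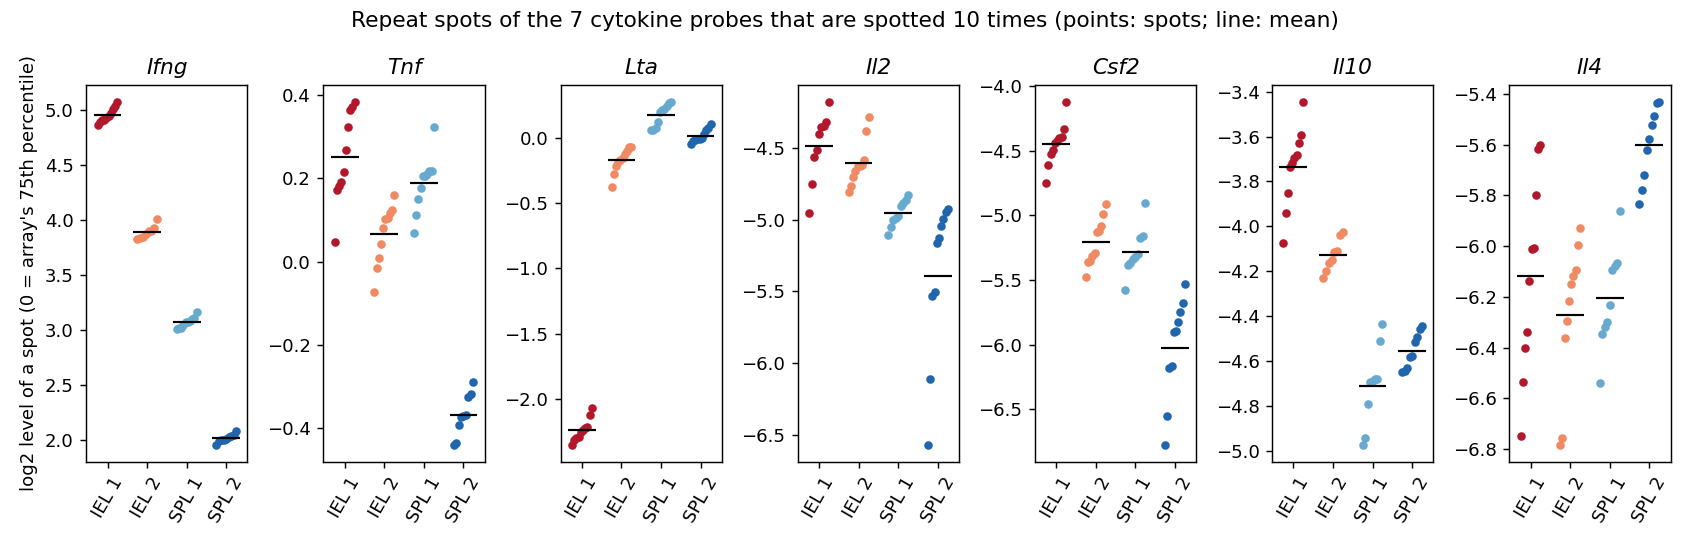
Log2 level of each kept spot of the 7 cytokine probes that are spotted 10 times per array, with 0 at the 75th percentile of the array. Points are spots and lines are their means. Spots of *Ifng* separate all 4 arrays, those of *Lta* separate IEL replicate 1 from the rest, and those of *Tnf* overlap between IEL replicate 1 and SPL replicate 1.

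The genes *Ltb*, *Tnf* and *Lta* lie beside each other on chromosome 17, with the *Ltb* and *Lta* probes 7178 bases apart and the *Tnf* probe between them. Lymphotoxin β, encoded by *Ltb*, is held on the membrane in a complex with lymphotoxin α, encoded by *Lta*, and this complex maintains lymphoid tissue through the lymphotoxin β receptor. *Ltb* (mm9, chr17:35333097-35333156, plus strand) had log2 levels of 5.11 and 6.85 on IEL replicates 1 and 2, and of 7.16 and 7.06 on SPL replicates 1 and 2. The SPL arrays lay close together and IEL replicate 2 just under them, so that the gap stems mainly from IEL replicate 1. For *Ltb* the log2 difference was -1.13 (standard error 0.63, adjusted p 0.634 by limma). Slide 1 gave -1.95 and slide 2 gave -0.31.

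*Lta* (mm9, chr17:35340275-35340334, minus strand) had log2 levels of -2.24 and -0.17 on IEL replicates 1 and 2, and of 0.17 and 0.02 on SPL replicates 1 and 2. IEL replicate 1 was low and the other arrays were within 0.35 of each other, as for *Ltb*. On slide 2, the 10 spots of IEL replicate 2 ranged from -0.38 to -0.07 and those of SPL replicate 1 from 0.06 to 0.27, without overlap. For *Lta* the log2 difference was -1.30 (standard error 0.74, adjusted p 0.634 by limma). Slide 1 gave -2.26 and slide 2 gave -0.35. Without IEL replicate 2, in a fit that rests on 1 IEL array, the differences of *Lta* and *Ltb* were -2.33 and -2.0. Without IEL replicate 1 they were -0.27 and -0.26.

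*Tnf* (mm9, chr17:35336795-35336854, minus strand), which encodes the inflammatory cytokine TNF, did not follow its neighbors. Its log2 levels were 0.25 and 0.07 on IEL replicates 1 and 2, and 0.19 and -0.37 on SPL replicates 1 and 2. The groups overlapped, since SPL replicate 1 lay between the IEL arrays. Between the means lay a log2 difference of 0.25, with an interval (95%) from -0.56 to 1.05 and an adjusted p of 0.745 from limma. Slide 1 gave 0.62 and slide 2 gave -0.12.

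*Ifng*, *Lta* and *Ltb* were picked by the fit without IEL replicate 2, which rests on 1 IEL array. Many other probes passed the threshold in that fit too, so the choice does not set these genes apart. The windows of 250 bases before their starts are shown here. They come from RefSeq on GRCm38.p6, in the direction of the gene, and they lie at chr10:118440796-118441045 (plus strand), chr17:35205352-35205601 (minus strand) and chr17:35194257-35194506 (plus strand). Capitals mark the core that NFAT factors bind, GGAAA, on either strand.
Ifng promoter: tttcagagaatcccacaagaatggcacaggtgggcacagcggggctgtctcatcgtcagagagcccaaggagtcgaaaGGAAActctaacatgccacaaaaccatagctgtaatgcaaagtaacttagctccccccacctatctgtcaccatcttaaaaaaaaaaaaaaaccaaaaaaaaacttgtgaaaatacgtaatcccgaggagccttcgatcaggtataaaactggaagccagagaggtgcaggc
Lta promoter: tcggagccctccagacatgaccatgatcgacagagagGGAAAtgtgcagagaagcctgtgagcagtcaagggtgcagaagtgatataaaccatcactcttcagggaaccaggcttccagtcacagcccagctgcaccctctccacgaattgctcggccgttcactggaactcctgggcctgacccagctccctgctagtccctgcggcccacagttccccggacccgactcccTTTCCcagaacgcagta
Ltb promoter: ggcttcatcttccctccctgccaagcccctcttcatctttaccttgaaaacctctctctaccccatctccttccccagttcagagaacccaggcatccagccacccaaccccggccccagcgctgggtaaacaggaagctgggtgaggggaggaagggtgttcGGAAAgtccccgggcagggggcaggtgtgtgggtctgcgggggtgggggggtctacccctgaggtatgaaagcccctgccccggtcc
The promoter table held 9 of the 10 genes, without *Il10*, in 10 windows because *Il4* had a pair of them. GGAAA was found in 8 of these 10 windows, against 55.6% of 32851 promoter windows. It stood once in *Ifng* and *Ltb*, and 2 times in *Lta*. An AP-1 site, TGANTCA, was found in 1 of the 10 windows, that of *Il17a*, against 6.75% of all windows, and the T-box core GGTGTGA was found in 0 against 3.33%. Each motif was searched on both strands, and only GGAAA matched in the windows shown. That the letters are missing from these windows says nothing of more distant elements.

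*Il2* encodes the growth factor IL-2, and its probes disagreed on the order of the arrays. The brighter one is shown whole, in lower case without marks, because it rests on a single spot per array.
A_52_P541353: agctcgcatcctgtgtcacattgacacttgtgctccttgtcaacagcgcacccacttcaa
It starts at base 61 of the transcript (mm9, chr3:37024756-37024815, minus strand).

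The brighter *Il2* probe, A_52_P541353, had log2 levels of -4.32 and -2.95 on IEL replicates 1 and 2, and of -4.03 and -4.31 on SPL replicates 1 and 2. IEL replicate 2 was high, at 56.3 units, and the other arrays lay together between 15.6 and 30.5 units. This probe has 1 spot per array, so that the high value rests on a single spot. The other probe, A_51_P114222, had levels of -4.49 and -4.61 on the IEL arrays, and of -4.96 and -5.39 on the SPL arrays. Here the groups did not overlap and IEL replicate 2 did not stand out, although on SPL replicate 2 only 8 of 10 spots were well above background. The log2 differences were 0.53 with a standard error of 0.53 (adjusted p 0.699) and 0.63 with a standard error of 0.27 (adjusted p 0.634, both from limma). Within slides, the first probe gave -0.01 and 1.08, and the second 0.90 and 0.35, on slides 1 and 2. The normexp correction turned their differences to -0.69 and -0.92.

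*Csf2* encodes GM-CSF, a growth factor of myeloid cells. Its probe (mm9, chr11:54060772-54060799 in the array's annotation, minus strand) had log2 levels of -4.45 and -5.20 on IEL replicates 1 and 2, and of -5.28 and -6.03 on SPL replicates 1 and 2. The intensities were 14.3, 11.8, 12.3 and 9.28 units, and on SPL replicate 2 only 7 of 10 spots were well above background. IEL replicate 2 and SPL replicate 1 were nearly level. For *Csf2* the log2 difference was 0.83 (standard error 0.42, adjusted p 0.634 by limma). Slide 1 gave 1.58 and slide 2 gave 0.08, and the normexp correction turned the difference to -0.96. It was 0.45 without IEL replicate 1, 1.2 without IEL replicate 2 or SPL replicate 1, and 0.455 without SPL replicate 2.

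*Il10*, which encodes a cytokine that restrains inflammation, differed most evenly between the slides. Its probe (mm9, chr1:132920943-132921002, plus strand) had log2 levels of -3.74 and -4.13 on IEL replicates 1 and 2, and of -4.71 and -4.56 on SPL replicates 1 and 2. The groups did not overlap, and all kept spots were well above background on every array. CD8αβ+ IELs were 1.63-fold higher by a log2 difference of 0.70 (standard error 0.26), for which limma gave an adjusted p of 0.634. Slide 1 gave 0.82 and slide 2 gave 0.58, and the normexp correction turned the difference to -0.86. Leaving out 1 array at a time gave 0.50 to 0.90, but the raw intensities of 23.4, 24.9, 18.3 and 25.7 units did not separate the groups before scaling.

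*Il22* encodes IL-22, which drives antimicrobial defense and repair of the epithelium. Its probes also list the near-identical gene *Iltifb*, so that the signal may belong to either. Probe A_52_P177054 (mm9, chr10:117646736-117646795, plus strand) had log2 levels of -2.26 and -4.21 on IEL replicates 1 and 2, and of -4.83 and -7.22 on SPL replicates 1 and 2. IEL replicate 1 was high at 65.2 units, and SPL replicate 2, at 4.05 units, was not well above background. The fitted log2 difference was 2.80 (standard error 1.07, adjusted p 0.634 by limma), a value in which 1 of the SPL arrays was not above background. Slide 1 gave 4.97 and slide 2 gave 0.63, and the normexp correction turned the difference to -0.67. Fitted without spots far below their local background, the same correction gave 1.13. Leaving out 1 array at a time gave 1.60 to 3.99.

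The other *Il22* probe, A_51_P232628 (chr10:117646653-117646712), was detected on IEL replicate 1 alone and was not tested. Its log2 levels of -3.93 and -6.21 on the IEL arrays, and of -6.66 and -7.92 on the SPL arrays, had the same order as those of the first probe. No fold is given, since 1 of the IEL arrays and both SPL arrays were not well above background.

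*Il4*, the signature cytokine of type 2 helper cells, was well above background only on SPL replicate 2, where 9 of 9 kept spots passed at a mean of 12.5 units. Its log2 levels (mm9, chr11:53426076-53426135, minus strand) were -6.12 and -6.27 on IEL replicates 1 and 2, and -6.20 and -5.60 on SPL replicates 1 and 2. It was not tested and no fold is given, since the difference did not exceed the detection limit. *Il17a*, the signature cytokine of type 17 cells (mm9, chr1:20723993-20724052, plus strand), read 6.75, 4.78, 1.70 and 2.53 units in the same order of arrays, and was not well above background on any of them. The 95th percentile of 153 negative control spots was between 1.80 and 2.12 units on each array. By that more lenient rule *Il17a* would count as detected on all arrays but SPL replicate 1.

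The defining markers of the sorted cells were detected in every sample. All 10 markers of CD8 T cells, among them *Cd8a*, *Cd8b1* and *Cd3e*, were well above background on every array, and the log2 of their summed scaled signal lay between 9.28 and 9.43. *Cd4* was nearly level, at -3.23, -3.02, -3.20 and -3.35 on IEL replicates 1 and 2 and SPL replicates 1 and 2. Markers of other cells were not level. The log2 sum of 10 epithelial markers was 4.73 and 2.33 on the IEL arrays, and 0.99 and -1.17 on the SPL arrays, with 10, 10, 10 and 9 of them detected and *Epcam* detected on all. This is the order of the arrays seen for *Ifng* and *Il22*.

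The log2 sum of 8 B cell markers was 1.86 and 4.42 on the IEL arrays and 4.78 and 4.38 on the SPL arrays, with 5, 8, 7 and 8 of them detected, *Cd79a* among them on all arrays. That of 9 macrophage and monocyte markers was 0.23 and 3.43, and 3.80 and 2.60, with 7, 9, 9 and 9 detected and *C1qa* not detected on IEL replicate 1. That of 7 neutrophil markers was -2.06 and 5.16, and 5.46 and 5.64, with 2, 6, 6 and 6 detected and *S100a8* not detected on IEL replicate 1. IEL replicate 1 was thus the array low in these markers, as it was for *Lta* and *Ltb*. Markers of CD4 T cells (4 genes) had sums of -0.74 and 1.47, and 1.80 and 1.64, those of NK cells (5 genes) -0.50 and 0.35, and 0.52 and 0.35, and those of innate lymphoid and γδ T cells (6 genes) -0.39 and -1.02, and -1.57 and -2.39. The low CD4 T cell sum on IEL replicate 1 stems mainly from *Cxcr5*, with -5.76 and 1.22 on the IEL arrays, and 1.62 and 1.51 on the SPL arrays. *Cd4* was nearly level, and *Zbtb7b* was highest on IEL replicate 1, with -1.15 and -1.86, and -1.89 and -2.76. Of the NK cell markers 3, 5, 5 and 5 were detected. Their low sum on IEL replicate 1 stems mainly from *Klra8*, with -4.54 and -0.91, and -0.68 and -0.76. *Klrb1c* was highest on IEL replicate 1, with -1.01 and -1.06, and -1.15 and -1.525. The part of all these cell types in the cytokine differences was not tested. In such bulk samples fewer cells of a type and less RNA per cell cannot be told apart.

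**Figure D4:**
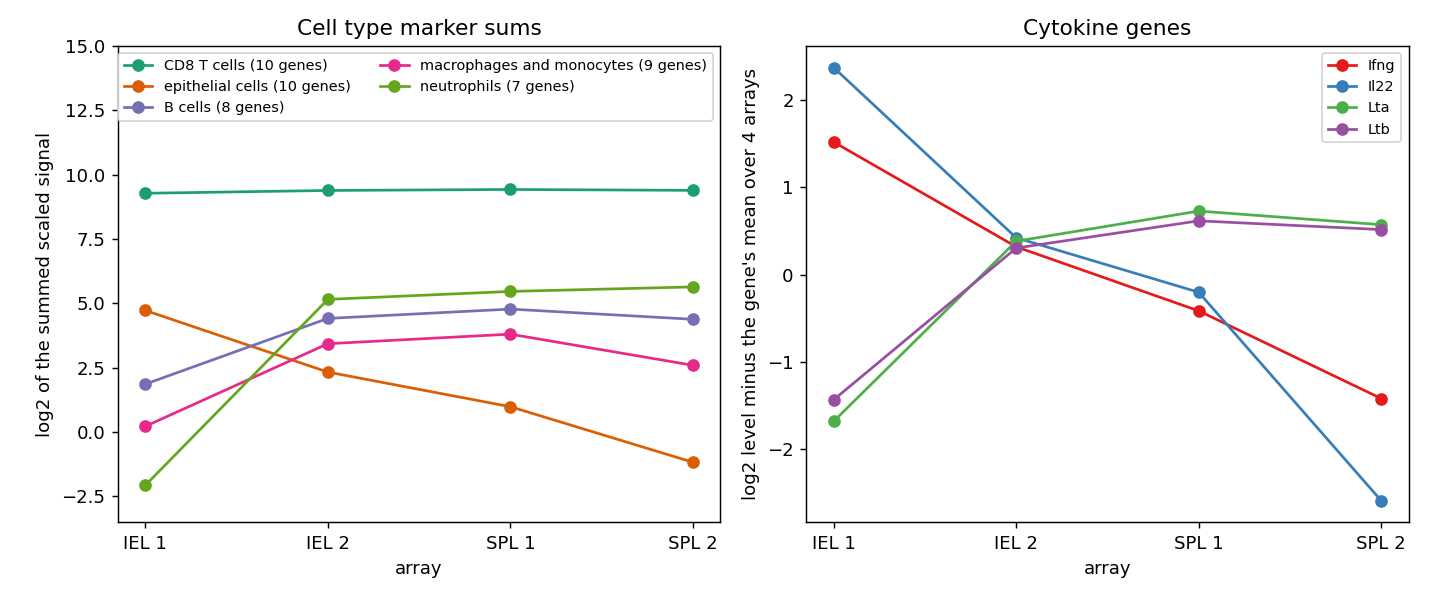
Left, log2 of the summed scaled signal of the markers of 5 cell types on each array. Right, log2 levels of 4 cytokine genes minus the mean of each gene over the 4 arrays. CD8 T cell markers stay between 9.28 and 9.43, epithelial markers step down from 4.73 to -1.17 as *Ifng* and *Il22* do, and the B cell, macrophage and neutrophil markers are lowest on IEL replicate 1, as are *Lta* and *Ltb*.

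Of 19 receptor genes listed for the 10 cytokines, among them *Csf2rb2*, whose product serves IL-3 and not one of the 10, 18 were tested, with 9 higher and 9 lower in CD8αβ+ IELs, 0 past the threshold and a median log2 difference of -0.01. The largest positive difference was that of *Tnfrsf1b*, the second TNF receptor, with log2 levels of 4.61 and 2.65 on the IEL arrays and 1.54 and 0.56 on the SPL arrays. Its difference was 2.57 (standard error 0.78, adjusted p 0.634 by limma), 4.04 within slide 1 and 1.10 within slide 2. *Il2ra*, the high-affinity chain of the IL-2 receptor, followed with a log2 difference of 1.40. At the other end were *Ifngr2* with -2.06 and *Csf2rb2* with -0.93.

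The chains of the IFN-γ receptor differed in opposite directions. *Ifngr1*, which binds the ligand, had log2 levels of 7.11 and 5.48 on the IEL arrays and 5.15 and 5.32 on the SPL arrays, a difference of 1.06. *Ifngr2*, which passes on the signal, had levels of -0.48 and 2.04 against 2.46 and 3.22. For both chains IEL replicate 1 stood furthest from the rest. *Ltbr*, the lymphotoxin β receptor, differed by -0.19, and *Tnfrsf1a*, the first TNF receptor, by 1.15 on the log2 scale. *Il22ra1*, the epithelial chain of the IL-22 receptor, had levels of -2.34 and -2.56 against -3.49 and -3.88, a difference of 1.23 (1.54 on slide 1 and 0.93 on slide 2).

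Transcription factors of T cell cytokine genes had 21 of 27 members higher and 6 lower, with 0 past the threshold and a median log2 difference of 0.30. Over all tested probes 49.9% were higher. Both IEL arrays lay above both SPL arrays for 14 of them and below for 3, beside 24.4% and 24.6% of all tested probes. The largest were *Ahr*, the aryl hydrocarbon receptor, at 2.54 and *Rora* at 2.51. *Tbx21*, which encodes T-bet, the activator of *Ifng*, had log2 levels of 5.40 and 4.01 on the IEL arrays and 3.12 and 1.60 on the SPL arrays. The difference was 2.35 (standard error 0.74, adjusted p 0.634 by limma), 3.81 within slide 1 and 0.89 within slide 2. The order of the arrays was that of *Ifng*. *Eomes*, a T-box factor related to it, differed by -0.29, with overlap at SPL replicate 2.

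The lowest differences among the transcription factors were those of *Stat6*, which carries the IL-4 signal, at -0.40 and of *Nfatc3* at -0.31. The genes *Nfatc1* and *Nfatc2* differed by 0.04 and 0.35. Regulators of cytokine mRNA decay had 4 of 8 members higher and 4 lower, with 0 past the threshold and a median of 0.01. They ranged from *Zc3h12a*, which encodes the RNase regnase-1, at -0.48 and *Rc3h1* at -0.20 to *Rc3h2* at 0.22 and *Zfp36l2* at 0.25.

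Genes that respond to IFN-γ are a common readout of its signal. Of 19, 18 were tested, with 5 higher and 13 lower beside 50.1% of all tested probes lower, 0 past the threshold and a median log2 difference of -0.25. Both IEL arrays lay above both SPL arrays for 0 of them and below for 6, beside 24.4% and 24.6% of all tested probes. These counts are a description and were not tested. *Cxcl10* had the largest positive difference, with log2 levels of 2.21 and 0.49 against 0.07 and 1.30, a difference of 0.67, followed by *Socs1*, a feedback inhibitor, with 0.28. *Cxcl9* and *Ciita*, the regulator of MHC class II, had -2.10 and -1.65. For *Ciita* the levels were -3.15 and -0.03 against 0.28 and -0.16, so that IEL replicate 1 alone was low, and *Cxcl9* was not well above background on that array.

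Of 22 other cytokines listed, not all of them particular to T cells, 15 were tested. Of these, 11 were higher and 4 lower, with 0 past the threshold and a median log2 difference of 0.85. Among all tested probes, 49.9% were higher and 0% passed. Both IEL arrays lay above both SPL arrays for 8 of these cytokines and below for 3, beside 24.4% and 24.6% of all tested probes. *Areg*, which encodes the growth factor amphiregulin, had log2 levels of -1.07 and -2.93 on the IEL arrays and -4.33 and -5.39 on the SPL arrays, a difference of 2.86. *Fasl*, the death ligand of cytotoxic cells, had levels of 3.82 and 2.92 against 1.60 and -0.16, a difference of 2.65. Their standard errors were 0.76 and 0.71, and limma gave both an adjusted p of 0.634. The lowest were *Il1b* with a difference of -1.49 and *Il1a*. For *Il1b* the gap stems mainly from IEL replicate 1, with log2 levels of -1.86 and 0.65 on the IEL arrays and 1.00 and 0.76 on the SPL arrays. *Il1a* was not well above background on either IEL array, and it was at least 1.02-fold lower there. In this bound the mean of the dim group takes, per array, the higher of the lowest signal of a probe well above background and the probe's own signal.

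Without IEL replicate 2, 8.55% of all tested probes passed the threshold higher in IEL replicate 1 and 11% lower. Among the receptors, 7 were then called higher and 4 lower, among the transcription factors 9 and 0, among the IFN-γ response genes 0 and 5, among the other cytokines 5 and 4, and among the decay regulators 0. That fit rests on 1 IEL array, which is assumed to vary as the SPL arrays do.

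The probes whose levels over the 4 arrays lay closest to those of *Ifng*, each centered on its own mean, were those of *Fam129a*, *Kctd17*, *Nek6*, *BC064078* and *Slamf7*. The root mean square difference from the *Ifng* probe was between 0.02 and 0.05 log2 units. With 4 arrays and 27902 probes such closeness is a description of the arrays.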

How the data were processed

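Total RNA of 2 samples of CD8αβ+ IELs and 2 of CD8αβ+ SPLs was hybridized to 1-color Agilent whole mouse genome arrays. The paper's methods name another chip for the microarray. The deposited scanner files hold intensities per spot that Feature Extraction (10.7.3.1 in the file headers, 10.7.1.1 in the submitters' processing notes) corrected for background within the array, without scaling the arrays to each other. A deposited table of the authors' log2 values per probe served as an alternative only.

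From the processed intensities, spots with an outlier mark were left out (98 to 179 per array), log2 values were reduced by each array's 75th percentile over 43379 spots that are not controls (312, 435, 479 and 605 units on IEL replicates 1 and 2 and SPL replicates 1 and 2), and the spots of a probe were averaged. No spot was saturated. The 27902 probes well above background on both arrays of at least 1 group were tested in R 4.3.3 with the limma package (3.58.1), without a block, two-sided, on 2 residual degrees of freedom, with Benjamini-Hochberg adjustment at 0.05 over all of them. The limma script was run on simulated data, and recovery of planted differences was required only where the spread was smaller than in these data. The brightest tested probe represents a gene. Figures and sequence searches used matplotlib 3.10.9 and pandas 2.3.3, and the exact permutation test scipy 1.17.1.

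For arrays, signal over background sets what is detected, and their number limits the precision. Deviations of same-numbered samples from their group means had a correlation of -0.0251 across probes. With 2 arrays per group this cannot show whether the numbers pair samples, and the main fit used no pairing. All 13 probes matched RefSeq genes by accession. Positions are on mm9, from the array's annotation. The cytokines, the lists and the rule for named genes (from each list up to 2 largest rises and falls and the direct receptors or regulators of a described cytokine, with the defining cell markers and the 5 probes closest to *Ifng*) were chosen with earlier results of these data known. *Eomes*, *Nfatc1* and *Nfatc2* are named as relatives of listed regulators. *Ms4a1*, *S100a9*, *Klra8* and *Klrb1c* were chosen after their values were seen. Some marker, regulator and probe details are not reported here. Alternatives changed the scaling, background correction, filters, marked spots, variance model, test, blocks, detection rule and samples.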

Additional observations from a re-analysis of the deposited data

How the results depend on the processing

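With 2 samples per group, no cytokine passed the threshold under any setting that kept all 4 arrays. Without IEL replicate 2, 3 of the 8 tested cytokine genes passed it, against 0 without any other sample, and the counts ranged from 0 to 5450 for all probes and from 0 to 34 of 85 for the gene lists. The fit without IEL replicate 2 rests on 1 IEL array. In it *Ifng* had log2 differences of 2.44 and 2.41, *Ltb* -2.0 and *Lta* -2.33, and the brighter *Il2* probe turned to -0.15. *Tnf* was -0.0305 without SPL replicate 2. With each sample left out in turn, the brighter *Ifng* probe ranged from 1.24 to 2.44, the other from 1.34 to 2.41, *Lta* from -2.33 to -0.27, *Ltb* from -2.0 to -0.26, the brighter *Il2* probe from -0.15 to 1.22 and *Tnf* from -0.03 to 0.53.

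The normexp background correction turned the dim probes of *Csf2* (-0.96), *Il10* (-0.86), *Il2* (-0.92 and -0.69) and *Il22* (-0.67), while the median of all probes moved to -0.38, and 2 of the 8 genes were then higher and 6 lower. When spots over 20 units under the local background were left out, the same correction kept 6 higher and 2 lower, with an all-probe median of 0.15, but *Il22* at 1.13 and *Csf2* at 0.50. The plain correction gave -0.575 for *Lta* and -0.66 for *Ltb*. Without the filter on dim probes that median was 0.15 as well. The cause was not tested. The other scalings and the authors' values kept 6 higher and 2 lower.

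Blocking on replicate number, or on slide, gave 0 calls over all probes and changed no call. The methods' t-test gave 469 probes higher and 348 lower at an unadjusted p below 0.05, none of them representing a cytokine, and 0 after Benjamini-Hochberg adjustment. By detection as positive and significant against background, all 10 genes were detected on each array. By the negative control spots 9 were on SPL replicate 1 and 10 on the others, and with at least 1 spot well above background 8 were on each. Low signal limits what can be said of *Il4*, *Il17a*, *Csf2*, *Il2*, *Il10* and *Il22*.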
